A study of Homo sapiens with 6 samples.

Results

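The subject was 5 microRNA (miRNA) probes: hsa-miR-199a-5p, hsa-miR-199a-3p/hsa-miR-199b-3p (1 probe for both names), hsa-miR-214-3p, hsa-miR-143-3p and hsa-miR-145-5p. They were taken by name from a 1-colour miRNA array with 1891 human miRNA probes, and each of the 5 was present with 4 spots per array. The array had been hybridised with Hy3-labelled total RNA from 3 lines of colorectal cancer cells, namely Lovo, SW620 and HT29, and every line was stably transfected with a pSUPER gfp-neo vector that carried a short hairpin RNA (shRNA) either against TGF-β1 (the knockdown) or a control shRNA. There were 3 knockdown arrays and 3 control arrays, 1 of each per line, from cultures that the series' design text describes as grown and harvested separately. With 1 culture per line and shRNA, the 3 lines were the replicates of the knockdown.

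Groups follow the sample titles. Another label field names the knockdown vector for both Lovo cultures and the control vector for both HT29 cultures, so that only the labels of SW620 agree throughout. TGFB1 is not a miRNA and could not be checked on this array. Between 398 and 542 human probes were detected per array, where detection means a signal of at least 50 intensity units, and a probe's signal is its spot foreground less background, taken as the median of its spots. The Lovo knockdown array stood apart. It had the most detected probes (542), the lowest median background (86 against 138 to 202 on the other arrays) and the lowest mean correlation with the others (0.633 against 0.745 to 0.812). One of its 7 negative control probes reached a signal of 57.5, whereas none exceeded -4 on any other array.

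A miRNA is cut from an RNA hairpin as a short strand that pairs, mainly through its seed (bases 2 to 8), with messenger RNAs and lowers their output. The 2 arms of a hairpin give a 5p and a 3p strand. The miR-199, miR-214, miR-143 and miR-145 families are known as miRNAs of fibroblasts, smooth muscle and other mesenchymal cells, and in colon tissue miR-143 and miR-145 are known to come mostly from such cells rather than from the epithelium. TGF-β1 is a secreted growth factor that acts on both epithelial and mesenchymal cells.

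The mature sequences are shown because the probes are told apart by them, with the seed in capitals, 5′ to 3′, as listed by RefSeq on GRCh38.p14. All 5 members were matched.
miR-199a-5p: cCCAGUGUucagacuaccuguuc
miR-199a-3p: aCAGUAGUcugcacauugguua
miR-199b-3p: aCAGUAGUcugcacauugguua
miR-214-3p: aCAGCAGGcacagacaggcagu
miR-143-3p: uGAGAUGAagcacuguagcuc
miR-145-5p: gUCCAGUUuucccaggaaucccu
No seed was shared between members, apart from miR-199a-3p and miR-199b-3p, which were identical at 22 of 22 positions and cannot be separated by a probe.

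The genes lie at 4 chromosomal sites. MIR199A2 (chr1:172144535-172144644, minus strand) and MIR214 (chr1:172138798-172138907, minus strand) are 5627 bases apart. Both lie within the long non-coding RNA gene DNM3OS, which runs antisense inside DNM3. MIR143 (chr5:149428918-149429023, plus strand) and MIR145 (chr5:149430646-149430733, plus strand) are 1622 bases apart within the long non-coding RNA gene CARMN. MIR199A1 (chr19:10817426-10817496, minus strand) lies antisense inside DNM2, and MIR199B (chr9:128244721-128244830, minus strand) antisense inside DNM1. The hairpin of MIR199A2 is shown because the strands of its 2 arms, in capitals, are read by separate probes. The 5p strand can also come from MIR199A1, and the 3p probe also reads MIR199A1 and MIR199B, so that no signal belongs to MIR199A2 alone.
MIR199A2: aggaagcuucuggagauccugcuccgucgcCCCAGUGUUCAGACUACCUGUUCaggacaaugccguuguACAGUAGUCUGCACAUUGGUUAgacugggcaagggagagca

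The first question was whether the 5 probes differed between knockdown and control cultures. Of these, hsa-miR-199a-5p and hsa-miR-145-5p, had lower signals on each of the 3 knockdown arrays than on any control array. The other 3 moved in different directions in different lines or were detected on too few arrays. No member passed the test across lines. Tests used limma with the cell line as a block on quantile-normalised log2 intensities, over the 570 human probes detected on at least 2 of the 6 arrays, with Benjamini-Hochberg adjustment over all 570. Of the members, 4 were in that set, and hsa-miR-143-3p, detected on 1 array, was not. The test called 0 of 570 probes (0%) at an adjusted p of 0.05. The smallest adjusted p was 0.154, and 61 probes had an unadjusted p under 0.05, of which 50 (8.77%) were lower in the knockdown.

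**Figure D1:**
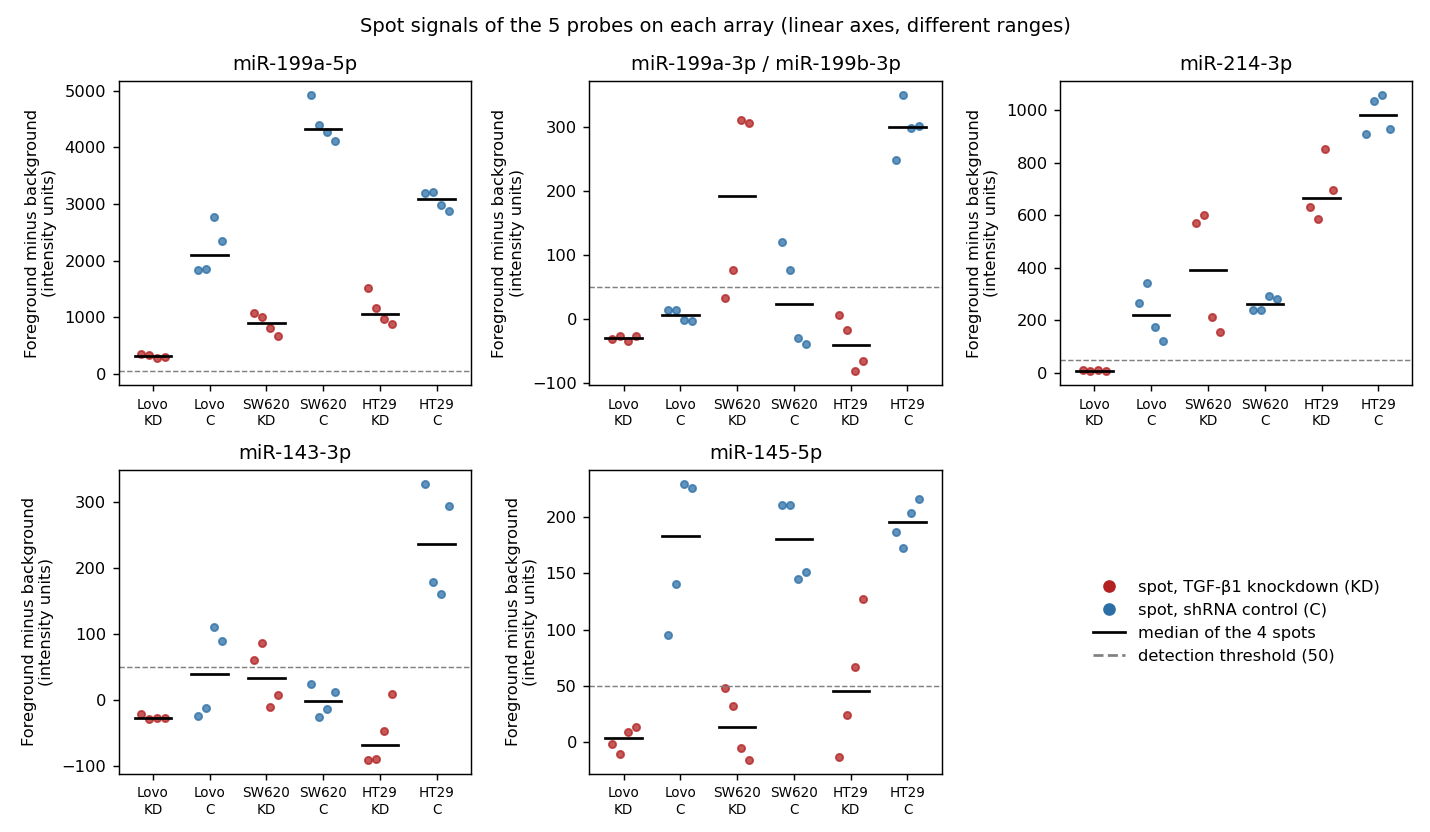
Foreground minus background signal in intensity units (linear axes with a different range in each panel) of every spot of the 5 probes on the 6 arrays, with knockdown (KD) left of control (C) in each line; bars mark the median of 4 spots and the dashed line the detection threshold of 50. The probes of miR-199a-5p and miR-145-5p have all 3 knockdown medians below all 3 control medians.

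hsa-miR-199a-5p, the 5p strand of the MIR199A1 and MIR199A2 hairpins, was detected with all 4 spots on every array. Its signal was 322, 904.5 and 1066.5 in the Lovo, SW620 and HT29 knockdown cultures, against 2101, 4334.5 and 3095.5 in the corresponding controls. The highest knockdown signal, in HT29, was below the lowest control signal, in Lovo. The groups averaged 764 ± 392 in knockdown and 3177 ± 1119 in control cultures (SD, n = 3 each).

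On the normalised log2 scale the knockdown minus control difference of hsa-miR-199a-5p was -2.19 ± 0.14 in Lovo, -1.96 ± 0.14 in SW620 and -0.67 ± 0.15 in HT29. These errors are standard errors over the 4 spots, a technical spread, so no test was made within a line. Control over knockdown, the differences correspond to folds of 4.55, 3.90 and 1.59. When the arrays were instead scaled on spike control probes, the median difference of the 318 probes detected on both HT29 arrays shifted by 1.95 to 2.10, and the HT29 difference of hsa-miR-199a-5p turned to 0.97, which was -1.14 relative to that median. The mean over lines was -1.60 ± 0.40 (limma SE, n = 3 pairs), with a 95% interval from -2.52 to -0.69. The limma p was 0.0035 and the adjusted p 0.199, so the difference did not pass the test. It ranked 10th by p and had the 9th lowest difference among the 570 probes. Without the HT29 pair the mean was -2.07 with a limma adjusted p of 0.000576, and without the Lovo pair it was -1.31 with an adjusted p of 0.555. In SW620, the line whose labels agree, the single pair gave the -1.96 above.

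Probes with all knockdown signals below all control signals were not rare: they made up 75 of 570 (13.2%) on the signal scale and 53 (9.3%) on the normalised scale, and 98 (17.2%) were lower in knockdown in all 3 lines. hsa-miR-199a-5p and hsa-miR-145-5p were in each of these sets. Counting differences of at least 2-fold lower, 26 of 408 probes detected on both arrays passed in Lovo (6.37%), 30 of 368 in SW620 (8.15%) and 22 of 318 in HT29 (6.92%). hsa-miR-199a-5p was among them in Lovo, where it had the 3rd lowest difference, and in SW620, where it had the 2nd lowest. In HT29 it was 46th from the lowest.

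hsa-miR-145-5p, a strand known from smooth muscle, was detected on 3 of 3 control arrays and on 0 of 3 knockdown arrays. Of the 570 probes, 15 (2.63%) had that pattern. Its signal was 3.5, 13.5 and 45.5 in the Lovo, SW620 and HT29 knockdown cultures, against 183.5, 181 and 195.5 in the controls. The control arrays lay close together, at 187 ± 7.75 (SD, n = 3), whereas knockdown arrays averaged 20.8 ± 21.9 (SD, n = 3). In the HT29 knockdown culture the spots ran from -13 to 127, and 2 of 4 exceeded 50.

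Because hsa-miR-145-5p was not above the threshold in knockdown cultures, its fold was taken as a bound. Control was 1.69-fold over knockdown across lines and at least 1.82-fold in Lovo. Each bound sets the control mean against the higher of the dim probe's own normalised level and the lowest level of any detected probe on that array. In SW620 and HT29 the probe's own level was the higher, and it also enters the value across lines. The values there, 1.66-fold in SW620 and 1.60-fold in HT29, are therefore measured differences and not lower limits. Nor is the 1.69-fold across lines a lower limit. The probe entered the test only through the control arrays, where it was high. Its fitted mean difference, against knockdown arrays at background, was -0.86 (limma adjusted p = 0.262). The HT29 value differed between sets of spots. Each member has 2 spots in blocks 1 to 18 of the array (the first set) and 2 in blocks 19 to 36 (the second set). On the HT29 knockdown array the sets differed by at least 2-fold for 25.1% of detected probes, against 3.77% to 15% on the other arrays. The spots of hsa-miR-145-5p on the HT29 knockdown array read -13 and 24 in the first set and 67 and 127, above the threshold, in the second. The HT29 difference was -1.05 with the first set alone and -0.22 with the second set alone, so that 1.60-fold does not hold for the second set. The SW620 difference, -0.73 as reported, was -0.44 with the first set and -1.01 with the second, so that 1.66-fold does not hold for the first set. Scaling on spike control probes turned the HT29 difference, -0.67 as reported, to 1.38, or -0.72 relative to the median under that scaling.

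**Figure D2:**
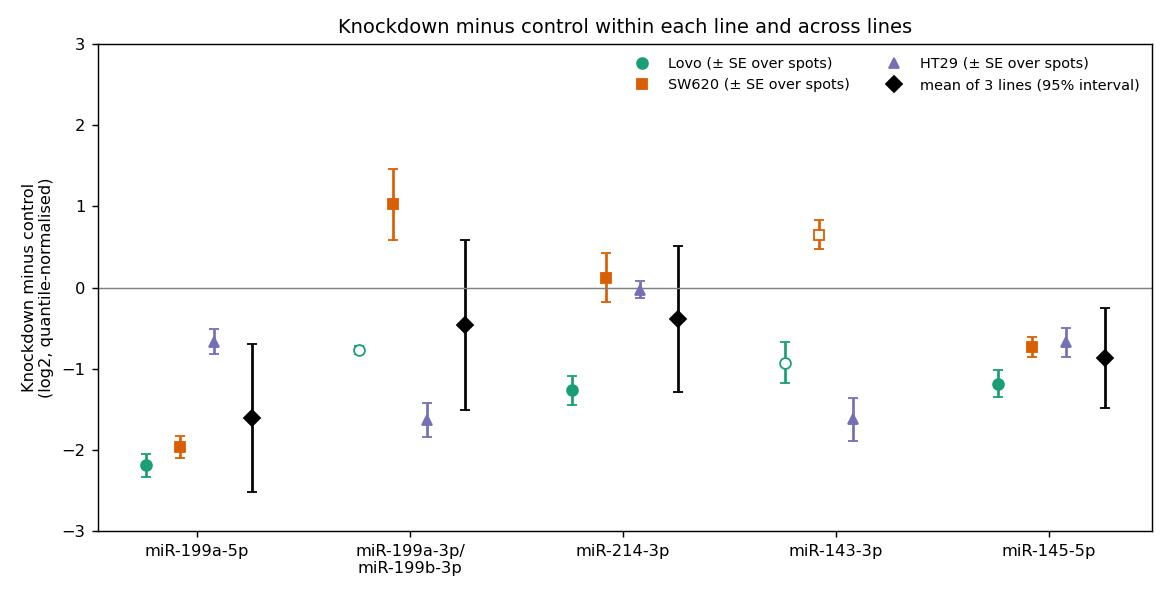
Knockdown minus control (log2, quantile-normalised) of each probe in Lovo, SW620 and HT29, with the SE over spots, and the mean over the 3 lines with its 95% interval (limma); open symbols mark lines in which neither array detected the probe. The interval of miR-199a-5p lies below 0 before adjustment, and those of miR-199a-3p/miR-199b-3p and miR-214-3p span 0; values of miR-145-5p are set against knockdown arrays at background, and miR-143-3p was not tested.

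hsa-miR-199a-3p/hsa-miR-199b-3p, the strand from the other arm of the miR-199 hairpins, was detected on 2 arrays, the SW620 knockdown and the HT29 control. Its signal was -28.5, 191.5 and -40.5 in the Lovo, SW620 and HT29 knockdown cultures, against 6.5, 24 and 300 in the controls. The groups overlapped, and SW620 and HT29 went opposite ways, except with spike control scaling. There the HT29 difference turned to 0.40, or -1.70 relative to the median under that scaling. In SW620 the knockdown was at least 1.99-fold over control, while in HT29 the control was at least 2.44-fold over the knockdown. The mean difference was -0.46 ± 0.46 (limma adjusted p = 0.729).

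The SW620 value of hsa-miR-199a-3p/hsa-miR-199b-3p likewise differed between the sets. In the knockdown culture the spots read 33 and 77 in the first set and 310 and 306 in the second. In the control culture they read 120 and 77 in the first set and -29 and -39 in the second. With the first set alone the SW620 difference was 0.24, and with the second set alone it was 1.86, so that 1.99-fold does not hold for the first set. Among all detected probes with 2 spots in each set, the sets differed by at least 2-fold for 8.06% on the SW620 knockdown array and 8.78% on the SW620 control array.

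**Figure D3:**
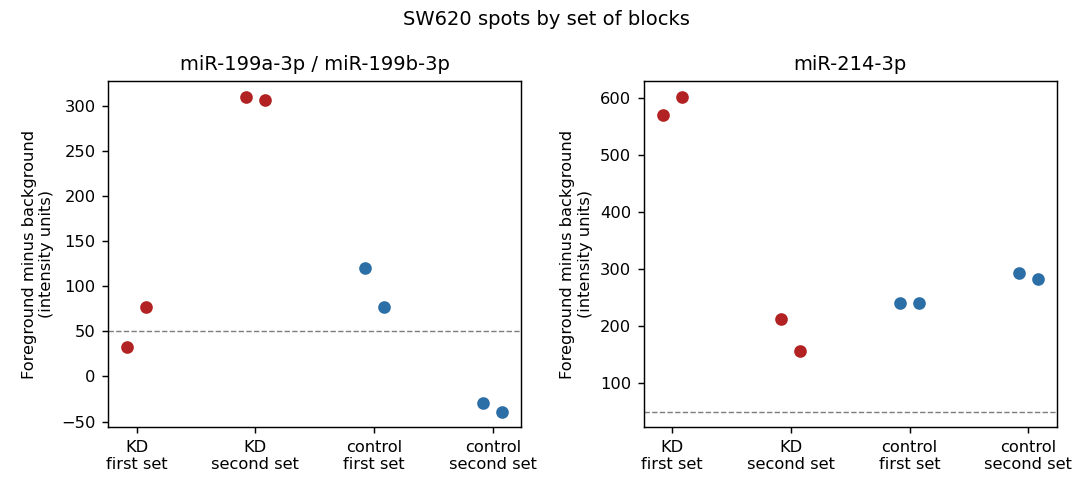
Signal of each spot (foreground minus background, intensity units) of miR-199a-3p/miR-199b-3p and miR-214-3p on the SW620 arrays, by shRNA and set of blocks, with the detection threshold of 50 dashed. On the knockdown array the second-set spots of miR-199a-3p/miR-199b-3p lie above its first-set spots (308 against 55 on average), and those of miR-214-3p lie below (184.5 against 586).

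hsa-miR-214-3p, encoded beside MIR199A2, was detected on 5 arrays, all but the Lovo knockdown. Its signal was 9, 391 and 664.5 in the Lovo, SW620 and HT29 knockdown cultures, against 221, 261.5 and 982 in the controls. Groups overlapped. The normalised log2 difference, against an array at background in Lovo, was -1.26 ± 0.18 in Lovo, 0.12 ± 0.30 in SW620 and -0.02 ± 0.10 in HT29 (SE over spots), where spike control scaling gave 1.82 in HT29, or -0.28 relative to the median. In Lovo the control was at least 2.04-fold over the knockdown, and that value comes from the array that stood apart, whose part in the result was not tested. With the second set of spots alone the Lovo difference was -0.90, so that 2.04-fold does not hold for that set. The mean difference was -0.39 ± 0.39 (limma adjusted p = 0.731), and without the Lovo pair it was 0.05. On the SW620 knockdown array the spots read 570 and 602 in the first set and 212 and 157 in the second, so that the SW620 difference was 1.10 from the first set and -0.64 from the second.

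hsa-miR-143-3p, encoded beside MIR145, was detected only in the HT29 control culture. Its signal was -27.5, 33.5 and -68 in the Lovo, SW620 and HT29 knockdown cultures, against 38.5, -1 and 236.5 in the controls. In HT29 the control was at least 2.19-fold over the knockdown, with no test. That does not hold for the second set of spots alone, where the HT29 difference was -1.09. With spike control scaling the HT29 difference turned to 0.40, or -1.70 relative to the median under that scaling. In Lovo and SW620 neither array detected the probe, and no fold is given. Its neighbour hsa-miR-145-5p was detected in all 3 controls.

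As a description over 6 arrays that share 3 lines, Pearson's r of normalised log2 values was 0.94 for hsa-miR-199a-5p with hsa-miR-145-5p, which are encoded on different chromosomes, and 0.95 for hsa-miR-199a-3p/hsa-miR-199b-3p with hsa-miR-143-3p. It was 0.32 between the 2 arms of miR-199a, 0.52 for hsa-miR-199a-5p with hsa-miR-214-3p, and 0.63 for hsa-miR-143-3p with hsa-miR-145-5p. All but the pair of hsa-miR-199a-5p with hsa-miR-214-3p include a probe that was below the threshold on 3 or more of the 6 arrays, so these values say little about whether neighbouring genes vary together. Among 419 human probes detected on at least 4 arrays, those most like hsa-miR-199a-5p were miR-5196-3p (r = 0.97), miR-708-5p (0.97) and miR-302f (0.94). Those most like hsa-miR-214-3p were miR-4533 (0.96), miR-552 (0.94) and miR-1264 (0.94).

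The opposite strands and the paralogue of these hairpins were dim. miR-199b-5p had signals of 151, 10.5 and -38 in the Lovo, SW620 and HT29 knockdown cultures, against 54, 2.5 and -50 in the controls, and was detected on both Lovo arrays only. miR-214-5p was also detected on both Lovo arrays only, at 113.5 in knockdown and 102.5 in control. miR-143-5p was detected on no array. miR-145-3p was detected on 3 arrays, with signals of 37.5, -10 and 104.5 in the knockdown cultures, against 77, 94 and -13 in the controls, so that it did not separate the groups as hsa-miR-145-5p did.

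Seed mates were sought among mature sequences listed by RefSeq. The paralogue miR-199b-5p has none listed and was not compared, although the MIR199B hairpin contains the seed of miR-199a-5p. Of the miRNAs compared, 4 others on the array carry the seed of a member. Among those 4, only miR-761, with the seed of miR-214-3p, was detected, on 6 of 6 arrays. The pair is shown to compare their sequences, seeds in capitals.
miR-214-3p: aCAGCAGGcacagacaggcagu
miR-761: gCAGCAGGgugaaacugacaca
They were identical at 13 of 22 positions without gaps. miR-761 had signals of 266.5, 485.5 and 352.5 in the Lovo, SW620 and HT29 knockdown cultures, against 177, 466.5 and 349.5 in the controls, with a mean difference of 0.23 ± 0.33 (limma adjusted p = 0.810). The seed mates miR-3129-5p, miR-3619-5p and miR-4770 were detected on no array.

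The second question was whether the lines differed. A limma fit with the shRNA as a block called 0 of 570 probes (0%) by its F test. The smallest adjusted p from limma was 0.485. At an unadjusted p under 0.05, limma listed 32 probes (5.61%). The probe of hsa-miR-214-3p was one of them (limma adjusted p = 0.595), and no other member was. Its normalised log2 level averaged 7.90 ± 0.89 in Lovo, 8.94 ± 0.09 in SW620 and 9.81 ± 0.02 in HT29 (SD, n = 2 arrays each). Both HT29 arrays lay above both SW620 arrays, and both of these above both Lovo arrays. The share of the 570 probes with a full order of the lines was not counted, so this order does not set the probe apart. Lovo minus HT29 was -1.91 ± 0.48 (limma adjusted p = 0.307), Lovo minus SW620 was -1.04 ± 0.48 (adjusted p = 0.737) and SW620 minus HT29 was -0.87 ± 0.48 (adjusted p = 1.00). The Lovo mean includes the knockdown array, on which the probe was not detected. Without that array Lovo minus HT29 was -1.26 (limma adjusted p = 0.994). Over 22 other settings the difference ran from -4.17 to -0.33, and it passed the test in 7, with a limma adjusted p from 0.00243 to 0.994.

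The other members did not pass the test between lines as reported. hsa-miR-199a-5p averaged 10.02 ± 1.55 in Lovo, 11.05 ± 1.39 in SW620 and 10.67 ± 0.47 in HT29 (SD, n = 2 arrays each; limma F adjusted p = 0.907). hsa-miR-145-5p averaged 7.77 ± 0.84, 8.10 ± 0.52 and 8.21 ± 0.48 in the same lines (F adjusted p = 0.907). hsa-miR-199a-3p/hsa-miR-199b-3p averaged 7.09 ± 0.54, 7.96 ± 0.73 and 7.99 ± 1.15 (F adjusted p = 0.907). This probe passed for Lovo minus SW620 without the SW620 control array (limma adjusted p = 0.0120) and for Lovo minus HT29 without the HT29 knockdown array (limma adjusted p = 0.0297), each time with an array left out on which it was not detected.

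Other miRNAs known from fibroblasts and smooth muscle were set beside the members. Of a list of 10, 8 were tested, with 5 below 0 and 3 above and a median difference of -0.08. Over all 570 tested probes, 45.1% were below 0 and the median was 0.05. None of the 8 passed the test. The lowest was miR-125b-5p, with signals of 61.5, 4016 and 2232 in the Lovo, SW620 and HT29 knockdown cultures, against 4426, 5349.5 and 11246.5 in the controls (mean difference -2.01 ± 0.61, limma adjusted p = 0.262). The list's summed signal ran from 1401 to 4757.5 in knockdown and from 5499 to 12255.5 in control cultures, and miR-125b-5p carried that gap. Without it the sums were 1339.5, 741.5 and 529 in the Lovo, SW620 and HT29 knockdown cultures, against 1073, 1048 and 1009 in the controls, which overlapped and were higher in knockdown in Lovo. miR-152 was detected on 3 control and 0 knockdown arrays. Its mean difference, against knockdown arrays at background, was -0.93 (limma adjusted p = 0.226). miR-99a-5p, by contrast, had a mean difference of 0.05.

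Markers of other cell types were summed in the same way. Of 10 miRNAs known from epithelial cells, 8 were detected in the Lovo knockdown and 6 in the Lovo control. Few were detected in the other lines: 1 in the SW620 knockdown, 2 in the SW620 control, 1 in the HT29 knockdown and 0 in the HT29 control. miR-215 and miR-203a were detected on no array. Of the 6 tested, 2 were below 0 and 4 above (median 0.60), with summed signals of 8854.5, 102.5 and 137.5 in the Lovo, SW620 and HT29 knockdown cultures, against 1370, 386 and 32.5 in the controls. The high sum lay on the Lovo knockdown array, the one that stood apart. There miR-141-3p differed from control by 4.02 on the log2 scale, against 0.54 in SW620 and -0.19 in HT29, and miR-192-5p by 3.05, against -0.22 and -0.18. These were the largest Lovo differences of the list. Not all of it was higher there: miR-375 differed by -0.24 and miR-200b-3p by -0.16 in Lovo. On the Lovo knockdown array hsa-miR-199a-5p, hsa-miR-214-3p and hsa-miR-145-5p were below their Lovo control. Of 7 blood cell miRNAs, 4 were tested, with 3 below 0 and 1 above (median -0.67), and summed signals of 428 to 1407 in knockdown and 766.5 to 3267.5 in control cultures. miR-142-3p of that list had signals of -31.5, 1097.5 and 217 in the Lovo, SW620 and HT29 knockdown cultures, against 265, 1194.5 and 2645 in the controls. Its mean difference was -1.44 (limma adjusted p = 0.301). That of miR-142-5p was -1.22 (limma adjusted p = 0.238), that of miR-150-5p -0.12 and that of miR-486-5p 0.21. miR-223-3p and miR-144-3p were detected on no array. Of 4 striated muscle miRNAs 2 were tested, with 1 on each side of 0. Their list had summed signals of 113.5 to 353 in knockdown and 303.5 to 440 in control cultures. miR-206 was detected on 6 arrays, with a mean difference of -0.66 (limma adjusted p = 0.520), and miR-133b had one of 0.16. miR-1 was detected on no array. The 2 endothelial markers were at or below background on every array. No probe of these lists passed the test, and the part of such RNA in the members' differences was not tested. In total RNA from a culture of 1 line, fewer cells with a miRNA and less of it per cell cannot be told apart.

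**Figure D4:**
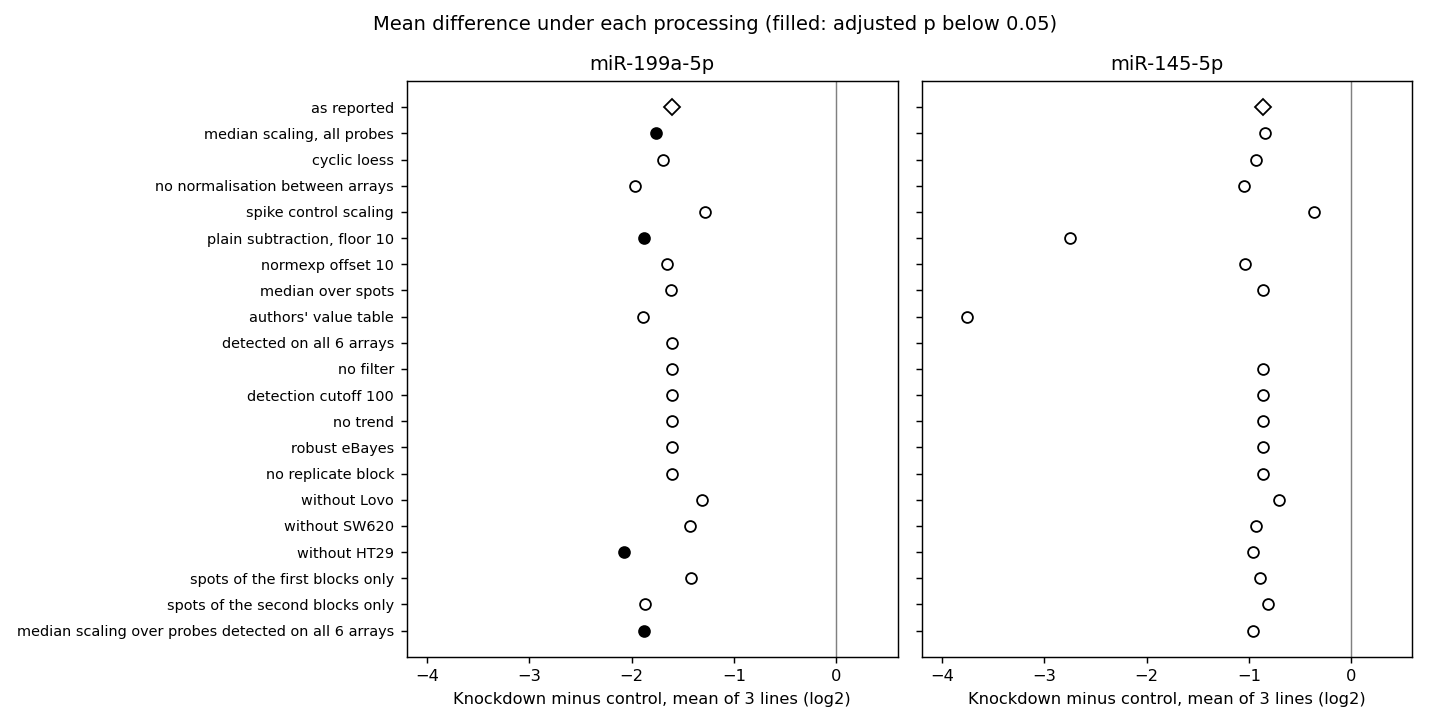
Mean knockdown minus control difference over the 3 lines (log2) of miR-199a-5p and miR-145-5p as reported (diamond) and under each other processing (circles), filled where the limma adjusted p was below 0.05. All values lie below 0; miR-199a-5p has filled circles in 4 of 20 other settings and miR-145-5p in 0 of 19.

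The mean of hsa-miR-199a-5p stayed below 0 in 20 of 20 other settings, from -2.07 to -1.28, and its limma adjusted p ran from 0.000334 to 0.930, below 0.05 in 4 of them, of which 1, median scaling over the probes detected on all 6 arrays, was added after seeing the data and gave the lowest. That of hsa-miR-145-5p, set against knockdown arrays at background, was below 0 in 19 of 19, from -3.76 to -0.36, with adjusted p from 0.1003 to 0.930.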

How the data were processed

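Per the file headers, the authors deposited for each spot of the 6 arrays a foreground intensity and one less background, both linear. Total RNA was labelled with Hy3, per the labels' protocols; how the slides were scanned is not stated there. The authors' value table is a ratio: each value equals the median signal of a probe over its spots divided by 1 factor per array (282.75 to 353.75; 100% of values within 1%). How the factor was derived is not stated. Column medians were 0.372 to 0.638.

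Intensities were background-corrected (normexp, offset 50), log2-transformed, averaged over spots and quantile-normalised over all non-control probes with limma 3.58.1 in R 4.3.3. limma with a trend was fitted over 570 probes, 2-sided. The cell line, named in the titles, pairs the arrays. Both fits were first checked on simulated intensities. Precision is limited by the number of arrays. The named probes were the members, the other arms, seed mates, list members and, for likeness, the 3 closest probes; seeds and sequences come from RefSeq. Members and lists were chosen with earlier results of these data known. Alternatives changed normalisation, background, spots, filter and model, or left out a pair or array. After seeing the data 2 were added: spots of 1 set of blocks only, and median scaling over probes detected on all 6 arrays. This scaling was added once the planned median scaling, over all probes, had been run and with an earlier count under it known.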

Additional observations from a re-analysis of the deposited data

Results flagged for a closer look

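hsa-miR-199a-3p/hsa-miR-199b-3p was at least 1.99-fold higher in the knockdown than in the control of SW620, while in HT29 the control was at least 2.44-fold over the knockdown. The normalised log2 differences, 1.03 in SW620 and -1.63 in HT29, are each taken against an array on which the probe was not detected. The difference between the lines was not tested, since each has 1 culture per shRNA. The spots of the probe on the SW620 arrays differed between the first and the second set of blocks. With the first set alone the SW620 difference was 0.24, and with spike control scaling it was 0.39. The 1.99-fold bound holds in neither case.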

How the results depend on the processing

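The count of miRNAs called between knockdown and control, 0 as reported, was 11 with median scaling over all probes, 32 with median scaling over the probes detected on all 6 arrays (added after the scaling over all probes had been run), 5 with cyclic loess, 11 with plain subtraction and 6 with robust eBayes. Leaving out 1 line it was 0 to 25: 0 without Lovo, 25 without SW620 and 25 without HT29. Without the replicate block, the line, it was 0, and no member's call changed. hsa-miR-199a-5p passed the test with median scaling over all probes (-1.76, limma adjusted p = 0.0234), over detected probes (-1.88, adjusted p = 0.000334) and plain subtraction (-1.88, adjusted p = 0.0133); leaving out 1 line gave -2.07 to -1.31. Direction reversed for hsa-miR-199a-3p/hsa-miR-199b-3p with spike control scaling (0.043) and without HT29 (-1.20 to 0.13 over the lines left out), and for hsa-miR-214-3p with spike control scaling (0.081) and without Lovo (-0.64 to 0.049). Spike control scaling shifted the median difference by 0.51 across lines and by 1.95 in HT29. In HT29 it gave 0.40 for hsa-miR-199a-3p/hsa-miR-199b-3p and 0.40 for hsa-miR-143-3p. Relative to the HT29 median of 2.10 under that scaling, each was -1.70. Calls between lines, 0 as reported, were 12 and 15 under the 2 median scalings, 1 with cyclic loess, 1 with spike scaling, 4 with subtraction, 2 with robust eBayes, 1 with spots of the second set of blocks and 0 to 24 leaving out 1 array; hsa-miR-214-3p, Lovo minus HT29, passed in 7 of 22 settings. Probes at least 2-fold lower in Lovo, SW620 and HT29 numbered 44, 16 and 50 without normalisation, 17, 80 and 0 with spike scaling, 73, 64 and 49 with subtraction and 64, 56 and 40 in the authors' value table. The causes were not tested. Precision is limited by signal over background: 4 of the 5 probes were below the detection threshold on at least 1 array.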
